A study of Mus musculus with 6 samples.

Results

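The blood-retina barrier is made by endothelial cells (ECs) that seal their junctions, form few transport vesicles, pump drugs back into the blood and carry selected nutrients inward. Caveolae are small flask-shaped vesicles of the EC surface, built from caveolins and cavins, that can ferry plasma proteins across the cell. In brain and retina, Mfsd2a restrains the formation of such vesicles in ECs with a closed barrier, whereas Plvap is typical of ECs whose vessels are leaky or fenestrated.

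The 10 genes of this barrier described here, among 20822 in the count table, were followed in retinal ECs, in the other cells of the same suspensions and between genotypes. They were a fixed list of names, drawn up with earlier results of these data known, and each was detected. Plvap (chr8:71497765-71511752, minus strand) encodes the protein of the diaphragms that span caveolae and fenestrae, and Mfsd2a (chr4:122946850-122961188, minus strand) a carrier of lysophospholipids with long fatty acids. Cav1 (chr6:17306335-17341452, plus strand) and Cav2 (chr6:17281185-17289115, plus strand) encode caveolins and lie 17219 bases apart, and Cavin1 (chr11:100956733-100970887, minus strand) and Cavin2 (chr1:51289126-51302960, plus strand) encode proteins of the caveolar coat. Abcb1a (chr5:8660077-8748575, plus strand) and Abcg2 (chr6:58584523-58695676, plus strand) encode efflux pumps, Slco1a4 (chr6:141805440-141856199, minus strand) an organic anion carrier and Tfrc (chr16:32608920-32632794, plus strand) the transferrin receptor that takes up iron. All positions are whole genes of the GENCODE annotation on the mouse genome build GRCm38, and all 10 genes are protein coding.

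The cells came from retinas of mouse pups at postnatal day 14 of oxygen-induced retinopathy, a model in which pups are kept in high oxygen until retinal vessels regress and are then returned to room air, where the retina becomes hypoxic and new vessels grow. C57BL/6J pups with both copies of endothelial nitric oxide synthase (eNOS+/+) were compared with pups homozygous for a knockout allele of its gene, Nos3 (eNOS-/-, backcrossed to C57BL/6J), and pups of both genotypes were raised in oxygen with CD1 foster mothers. The allele is carried by every cell of the animal, so a difference between genotypes is not one of ECs alone. Each genotype had 3 replicates of 3 to 5 pooled retinas, whose cells were enriched with beads against the EC surface protein CD31 and sequenced by Drop-seq, which captures the 3′ ends of the mRNAs of single cells in droplets and counts them as unique molecular identifiers (UMIs). For every cell type label and replicate the UMIs were summed, and a level is given as CPM, the share of that sum scaled to 1000000 UMIs. It compares a gene between samples, not genes with each other.

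The table held 8944 cells with 10361314 UMIs. Of these, 5925 cells carried an EC label, 1428 as Tip ECs (the leading cells of sprouts), 3335 as Structural ECs and 1162 as Proliferative ECs. Replicates held 288 to 2266 ECs with medians of 418 to 1098 UMIs per EC, and eNOS-/- 2 had both the most ECs and the lowest median. Replicates of the same genotype shared no cell barcode, and 3 pairs of replicates of different genotypes shared 1 each. The summed level of 7 EC marker genes was 5475 to 6509 CPM in the ECs of each replicate and 573 to 1520 CPM on average in the 7 other labels, so EC genes were read at a lower level in each of these. The ECs of eNOS-/- 3 stood apart in 7 mural cell genes, which summed to 2269 CPM there and to 33.7 to 116 CPM in the ECs of the other 5 replicates. Most of this lay in its Structural ECs, at 3894 CPM. The sum of 5 erythroid genes varied between 24.3 CPM in eNOS+/+ 1 and 8529 CPM in eNOS+/+ 2. Most of it lay in Structural ECs, at 8325 CPM on average, against 125 CPM in Tip and 59.1 CPM in Proliferative ECs. A sum of 5 glial genes was 514 CPM on average in Structural, 174 CPM in Tip and 320 CPM in Proliferative ECs. The part of these genes in the differences between EC labels was not tested. Nos3 itself was read at 19.4, 36.6 and 23.6 CPM in the ECs of eNOS+/+ 1 to 3 and at 21.2, 16.1 and 32.8 CPM in those of eNOS-/- 1 to 3. Drop-seq reads the 3′ end of a transcript and the part missing from the allele is not given in the sources used here, so these tags do not check the genotype labels.

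The 10 genes were mainly EC genes in these suspensions. ECs contributed 79.5% of all UMIs but 92.4% (Tfrc) to 99.0% (Slco1a4) of the UMIs of each of the 10 genes. The labels were themselves drawn from the same UMIs, so levels across labels are a description and were not tested. They are given as mean ± SD over the replicates in which a label held at least 5000 UMIs, 6 replicates for the EC, Mural and Neurons labels and 5 for Neuroglia, Rods, Immune and Optc+ cells. Cones reached it in only 2 replicates.

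Slco1a4 and Plvap were the genes with the fewest UMIs outside ECs, 16 and 10, of 1640 and 427 in all. As a share, ECs held 99.0% of the UMIs of Slco1a4, 98.2% of Mfsd2a, 97.7% of Abcb1a and Plvap and 97.5% of Abcg2. Slco1a4 stood at 254 ± 110.5 CPM in Structural ECs, and at 96.5 ± 29.1 and 72.5 ± 43.9 CPM in Proliferative and Tip ECs, and no Slco1a4 UMI was found in Mural cells, Neuroglia, Optc+ cells or Cones. With cells drawn down to 500 UMIs each, 0 of 147 Mural cells had a Slco1a4 UMI, which allows a share of up to 2.48% (exact 95% interval, counting error only), against 7.56% of 3545 ECs and 0.238% of 421 Rods. Plvap reached 85.4 ± 49.7 CPM in Structural ECs, 48.9 ± 32.0 CPM in Tip and 32.8 ± 14.2 CPM in Proliferative ECs, and 417 of its 427 UMIs lay in ECs. Taking the sum of both SDs as the spread, the steps between these EC labels lay within it for Plvap, whereas the step from Structural to Proliferative ECs exceeded it for Slco1a4. This spread covers replicates of both genotypes and does not compare labels within a replicate, which is done further below.

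Mfsd2a was similar in the 3 EC labels and lower outside them. It was found at 329 ± 54.4 CPM in Proliferative, 328 ± 63.3 CPM in Structural and 277 ± 57.2 CPM in Tip ECs, which did not differ beyond their spread. The next label in order, Optc+ cells, had 64.7 ± 81.7 CPM, a step larger than the spread, and Mural cells had 16.1 ± 21.3 CPM. The efflux pump genes had a higher mean in each EC label than in any other label. Tip ECs were the lowest EC label, at 268 ± 94.8 CPM of Abcb1a and 271 ± 60.8 CPM of Abcg2. For both genes the step from Tip ECs to the next label lay within the spread. Abcb1a was at 542 ± 132 CPM in Structural ECs and 103 ± 86.9 CPM in Mural cells. Abcg2 was at 410.3 ± 59.7 and 98.2 ± 87.4 CPM, with 142.6 ± 111 CPM of Abcg2 in Neuroglia.

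Of the caveolar coat genes, Cav1 and Cav2 were shared with Neuroglia and Cavin1 with Mural cells. Neuroglia, the label that holds the glial cells of the retina, had 348 ± 211 CPM of Cav1 against 272 ± 88.4 CPM in Tip, 175 ± 45.8 CPM in Structural and 168 ± 42.2 CPM in Proliferative ECs. The 5 Neuroglia sums gave 251, 144 and 299 CPM in eNOS+/+ 1 to 3 and 348 and 700.2 CPM in eNOS-/- 1 and 2, from 1 to 42 UMIs each. With cells drawn down to 500 UMIs, 18.4% of 98 Neuroglia had a Cav1 UMI (exact 95% interval 11.3 to 27.5%), against 9.76% of ECs (8.80 to 10.8%) and 0.238% of Rods (0.00601 to 1.32%). Cav2 was at 90.2 ± 55.0 CPM in Neuroglia, within the range of the EC labels (85.9 to 112 CPM). Cavin1 and Cavin2 were low there, at 18.4 ± 25.3 and 11.7 ± 18.3 CPM. Outside ECs, Cavin2 was highest in Optc+ cells, at 121 ± 41.1 CPM, and it was 22.2 ± 49.4 CPM in Mural cells.

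Mural cells, the pericytes and smooth muscle cells that wrap vessels, held Cavin1 at 317 ± 136 CPM, from 174 to 530 CPM in each of the 6 replicates, next to 397 ± 78.0 in Structural ECs. Cav1 in Mural cells was uneven, with 6, 0 and 0 UMIs in eNOS+/+ 1 to 3 and 6, 19 and 2 UMIs in eNOS-/- 1 to 3, which gave 144 ± 209 CPM. Mural cells also carried 1479 CPM of the EC marker genes on average. In the same sums Slco1a4 had 0 UMIs, Plvap 3, Mfsd2a 3, Cavin2 11, Cav2 12, Abcg2 18, Tfrc 19 and Abcb1a 22. The part of EC mRNA in the Mural levels was not tested. Tfrc, a gene used by most dividing or iron-demanding cells, was the least restricted of the 10. It was found at 166 ± 206 CPM in Rods, 83.5 ± 57.9 in Neurons and 73.2 ± 50.7 in Neuroglia, and the Rod value rested on 523.9 CPM (11 UMIs) in eNOS+/+ 3.

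**Figure D1:**
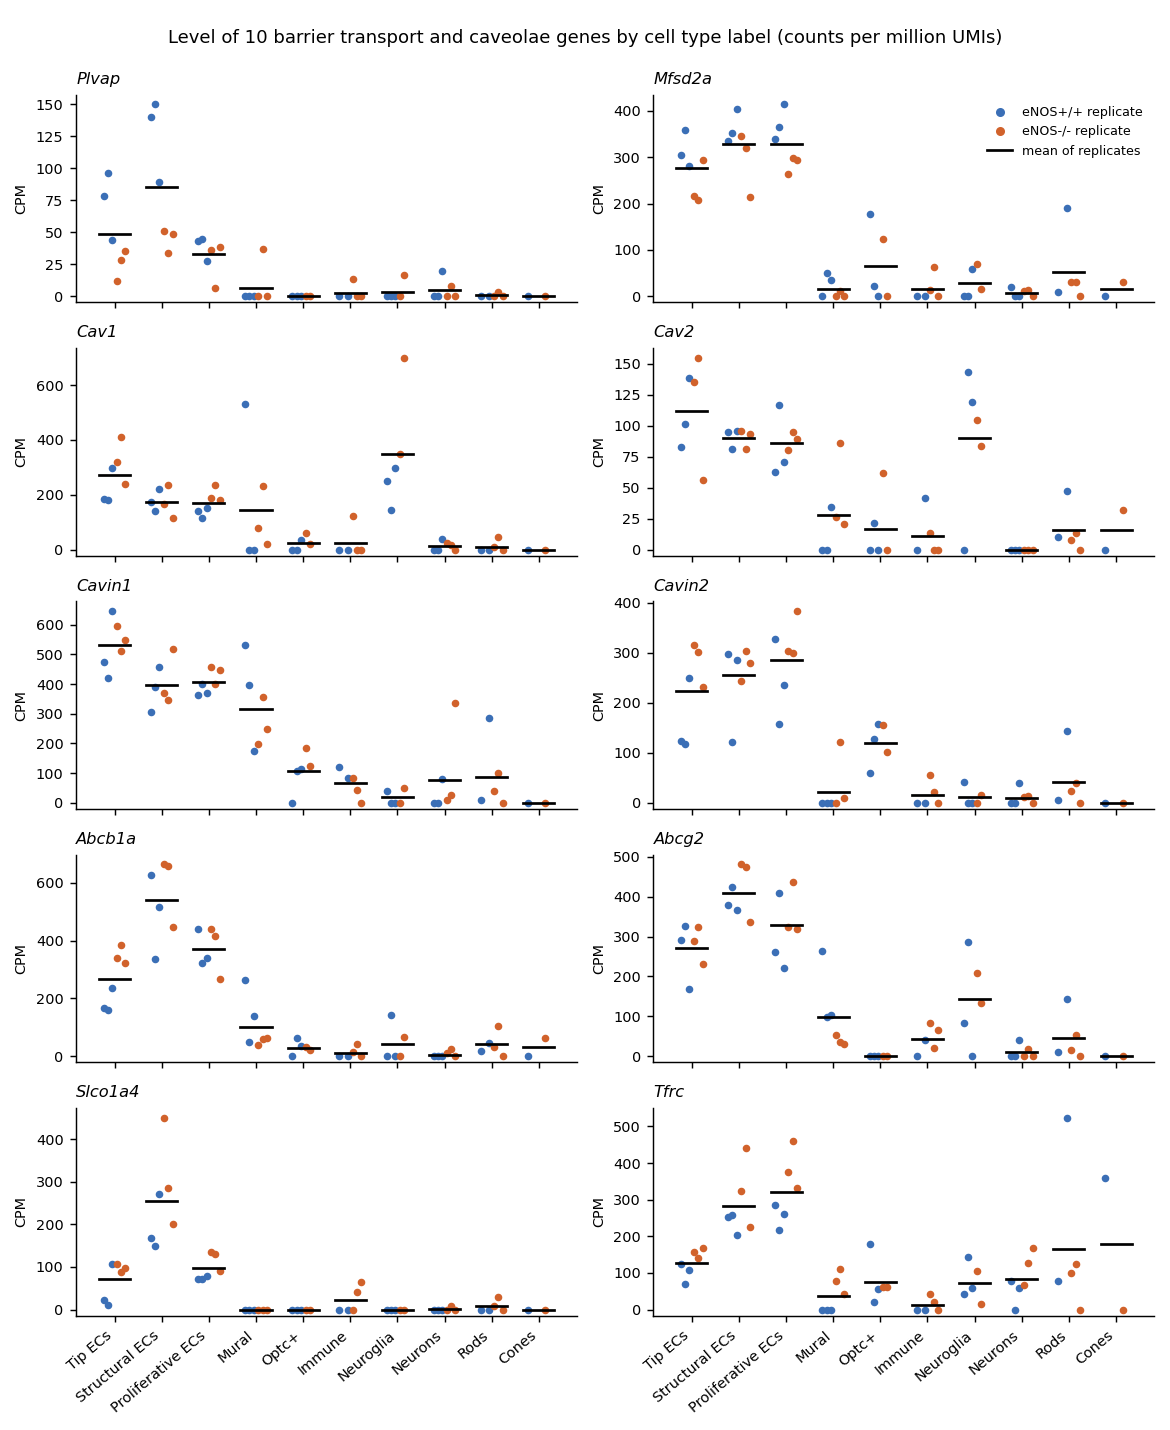
Level of each gene in CPM (y axis, linear, own scale per gene) in each cell type label (x axis); points are replicates with at least 5000 UMIs in the label, coloured by genotype, and bars are their mean. Slco1a4, Mfsd2a, Abcb1a, Plvap and Abcg2 have 97.5 to 99.0% of their UMIs in the 3 EC labels. Cav1 reaches 348 CPM on average in Neuroglia and Cavin1 317 CPM in Mural cells.

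Within the endothelium 4 transport genes and Plvap were lower, and the coat genes Cav1 and Cavin1 higher, in Tip than in Structural ECs of every replicate. The level of each gene in one EC label was divided by that in Structural ECs of the same replicate, as log2 of CPM with 10 CPM added. Slco1a4 was lower in Tip ECs by 1.86 ± 0.74 on this log2 scale (SD, n = 6), Tfrc by 1.09 ± 0.50, Abcb1a by 1.03 ± 0.47, Plvap by 0.71 ± 0.44 and Abcg2 by 0.60 ± 0.26, each in 6 of 6 replicates. Cav1 was higher in Tip ECs by 0.59 ± 0.35 and Cavin1 by 0.42 ± 0.26, also in 6 of 6 replicates. Cav2, Cavin2 and Mfsd2a went up in some replicates and down in others.

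The levels of single replicates show how far the labels lay apart. Slco1a4 in Tip ECs was 23.0, 10.7 and 107 CPM in eNOS+/+ 1 to 3 and 107.7, 88.0 and 98.2 CPM in eNOS-/- 1 to 3. In Structural ECs the same replicates had 167, 149.8 and 271 CPM and 450.4, 286 and 202 CPM. The lowest Structural value exceeded the highest Tip value, as it did for Tfrc (204 to 440.0 CPM in Structural and 69.4 to 168 CPM in Tip ECs). Abcb1a spanned 160.3 to 386 CPM in Tip ECs and 336 to 664 CPM in Structural ECs, so its ranges overlapped between replicates although the Tip value was the lower in each replicate.

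Proliferative ECs shared only a part of this pattern. Relative to Structural ECs they had less Slco1a4 (1.26 ± 0.31 lower on the log2 scale), Plvap (1.08 ± 0.58), Abcb1a (0.52 ± 0.24) and Abcg2 (0.34 ± 0.29), in 6 of 6 replicates each. Tfrc was not among them, with a mean log2 ratio of 0.18 ± 0.27 and 5 of 6 replicates above 0, and it was 1.27 ± 0.26 lower in Tip than in Proliferative ECs in 6 of 6 replicates. Tip ECs also had more Cav1 (0.64 ± 0.22) and Cavin1 (0.37 ± 0.23) than Proliferative ECs in 6 of 6. Mfsd2a was lower in Tip than in Proliferative ECs in 5 of 6 replicates and higher in 1, with a mean log2 ratio of -0.25 ± 0.24. Median depth differed between the labels, at 1007 UMIs per cell in Tip, 491 in Structural and 964 in Proliferative ECs, and with cells drawn down to 500 UMIs each the share of cells with a Slco1a4 UMI was 3.21%, 11.6% and 5.20% (7.28%, 16.4% and 11.7% before).

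**Figure D2:**
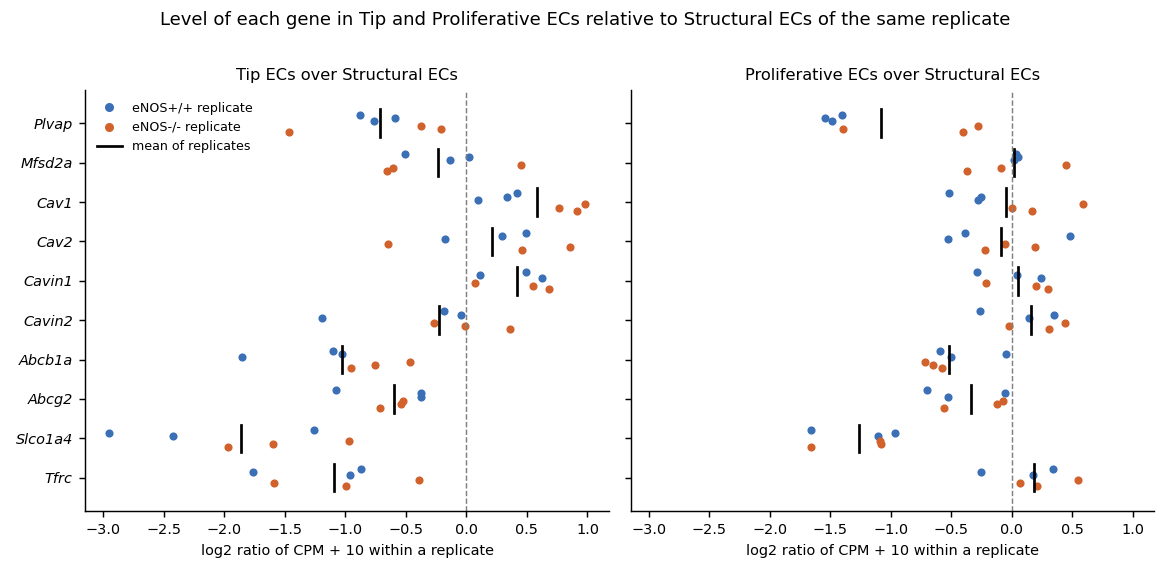
Log2 ratio of CPM + 10 (x axis) of each gene in Tip ECs (left) and Proliferative ECs (right) over Structural ECs of the same replicate; points are the 6 replicates coloured by genotype and bars their mean. All 6 points lie below 0 for Plvap, Abcb1a, Abcg2, Slco1a4 and Tfrc and above 0 for Cav1 and Cavin1 in Tip ECs.

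Between genotypes, Plvap was the gene of the list with the largest difference, and none of the 10 genes passed the test. Across all ECs Plvap was 99.4, 99.0 and 65.0 CPM in eNOS+/+ 1 to 3 and 38.0, 25.6 and 43.0 CPM in eNOS-/- 1 to 3. Every eNOS-/- replicate lay below every eNOS+/+ replicate, with means of 87.8 ± 19.8 and 35.5 ± 8.98 CPM (SD, n = 3 each). The log2 fold change of eNOS-/- over eNOS+/+ was -1.35 (SE 0.27, 95% interval -1.93 to -0.77). Its unadjusted p of 0.000192 by edgeR's quasi-likelihood test was the third smallest of 9483 genes, and the Benjamini-Hochberg adjusted p was 0.433.

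The same held in the label with most Plvap. In Structural ECs Plvap was 139.7, 149.8 and 89.4 CPM in eNOS+/+ and 50.6, 34.0 and 48.6 CPM in eNOS-/- replicates, again without overlap. The log2 fold change was -1.51 (SE 0.30) with an adjusted p of 0.275 by edgeR, the fourth smallest unadjusted p of 7577 genes. The call depends on the setting. Without a filter on low counts the adjusted p by edgeR was 0.00139, in a fit that called 74 genes of any kind, against 2 with the filter. The DESeq2 test and each fit with 1 replicate left out did not call Plvap in Structural ECs. In Tip ECs it was 78.3, 96.2 and 44.2 CPM against 12.0, 27.9 and 35.1 CPM, a log2 fold change of -1.57 (SE 0.47) with an adjusted p of 0.562 by edgeR. In Proliferative ECs, where 43.5, 45.0 and 27.6 CPM stood against 35.9, 6.76 and 38.4 CPM, the genotypes overlapped and Plvap had too few UMIs to be tested.

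These levels rest on few molecules. The 5925 ECs held 417 Plvap UMIs in 294 cells, 214 of which had a single UMI, and the sums of single replicates held 21 to 99 UMIs in all ECs. With ECs drawn down to 500 UMIs each, a Plvap UMI was seen in 4.04%, 6.35% and 2.00% of the ECs of eNOS+/+ 1 to 3 and in 2.10%, 1.08% and 1.09% of those of eNOS-/- 1 to 3, so that the shares overlapped where the levels did not. The share in Rods at the same depth was 0 of 421 cells, which allows up to 0.872%, with a median of 361 UMIs per Rod and 682 per EC before drawing. The direction was the same under each of the 12 alternatives tried in Tip ECs, Structural ECs and all ECs. The adjusted p in all ECs ranged from 0.00049 (no filter on low counts) to 1.00 over them and was 0.0207 without eNOS-/- replicate 3, the replicate whose ECs carried mural cell genes. With that replicate left out, Plvap differed by -1.46 on the log2 scale, and the part of the mural genes in this was not tested.

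Mfsd2a, the counterpart of Plvap in barrier ECs, also lay lower in eNOS-/- ECs, by much less. In all ECs it was 327, 358 and 368 CPM in eNOS+/+ 1 to 3 and 294, 281 and 249.8 CPM in eNOS-/- 1 to 3, without overlap, with a log2 fold change of -0.36 (SE 0.18) and an adjusted p of 0.877 by edgeR. In Proliferative ECs the 338, 364 and 414 CPM of eNOS+/+ lay above the 265, 299 and 294 CPM of eNOS-/- (log2 fold change -0.38, SE 0.23). In Tip and Structural ECs the genotypes overlapped.

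**Figure D3:**
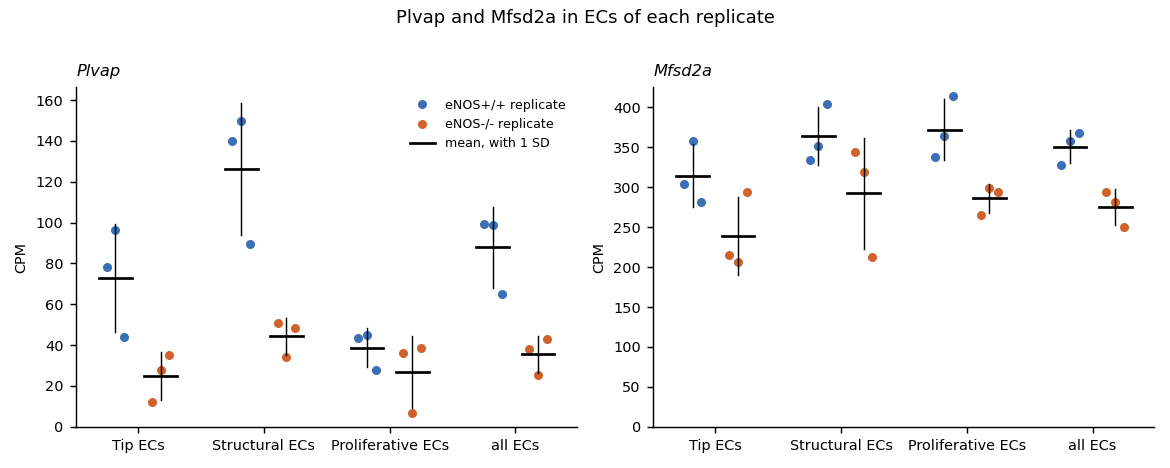
Plvap (left) and Mfsd2a (right) in CPM (y axis, from 0) in each EC label and in all ECs; points are replicates coloured by genotype, horizontal bars the mean and vertical bars 1 SD (n = 3). In all ECs the eNOS+/+ points for Plvap lie between 65.0 and 99.4 CPM and the eNOS-/- points between 25.6 and 43.0 CPM.

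By edgeR's quasi-likelihood test, 0 of 10 genes of the list were called in Tip ECs at an adjusted p under 0.05. The count was 0 of 10 for Structural, 0 of 9 for Proliferative and 0 of 10 for all ECs. It called few genes of any kind, 0.0181%, 0.0264%, 0.0217% and 0.0211% of those tested in these sets. At an unadjusted p under 0.05 there were 3, 2, 3 and 3 genes of the list in the same order, beside 4.95%, 5.52%, 6.38% and 5.78% of all genes tested. DESeq2 called 0 of the list in each set. Some other alternatives called Plvap and no other gene of the list, among them edgeR without a filter on low counts, in Structural and in all ECs, and edgeR without eNOS-/- 3, in all ECs. Because the replicates are pools of retinas, p-values measure the spread between pools.

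Tfrc and Slco1a4 lay higher in eNOS-/- ECs on average, unlike Plvap and Mfsd2a. Of the 10 genes, 8 had a log2 fold change above 0 in all ECs and 2 below 0. Tfrc in all ECs was 227, 190.4 and 183 CPM in eNOS+/+ and 302, 357 and 225 CPM in eNOS-/- replicates, with a log2 fold change of 0.56 (SE 0.21) and an adjusted p of 0.824 by edgeR. Slco1a4 was 105, 83.8 and 188 CPM against 285, 189.6 and 154 CPM, with a log2 fold change of 0.71 (SE 0.30) and the same adjusted p. For both, eNOS-/- 3 lay within the eNOS+/+ range. In Proliferative ECs neither overlapped. There Tfrc was 285, 216 and 260.3 CPM against 375, 461 and 333 CPM, and Slco1a4 was 72.5, 72.0 and 78.9 CPM against 136, 130.1 and 89.5 CPM, the last from 7 UMIs.

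Abcb1a, the P-glycoprotein gene, differed most in Tip ECs. It was 166, 160.3 and 236 CPM in eNOS+/+ and 339, 386 and 323 CPM in eNOS-/- replicates, without overlap, with a log2 fold change of 0.88 (SE 0.26) and an adjusted p of 0.562 by edgeR. In Structural ECs it was 626, 336 and 518 CPM against 664, 659 and 448 CPM, which overlapped. Abcg2 differed by 0.17 (SE 0.20) on the log2 scale in all ECs, with an interval of -0.26 to 0.60.

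None of the coat genes passed the test either. Cavin2 in Tip ECs had the largest difference among them, at 164 ± 74.8 CPM in eNOS+/+ and 283 ± 45.0 CPM in eNOS-/-, which overlapped (log2 fold change 0.74, SE 0.29, unadjusted p 0.0175 and adjusted p 0.776 by edgeR). Cav1 in Tip ECs was 184, 182 and 297 CPM in eNOS+/+ and 319, 411 and 238 CPM in eNOS-/- replicates, which overlapped (log2 fold change 0.55, SE 0.28, adjusted p 0.984 by edgeR). In Proliferative ECs it was 140.1, 117 and 149.9 CPM against 187, 237 and 179 CPM, without overlap (log2 fold change 0.61, SE 0.27, adjusted p 0.721 by edgeR), and in Structural ECs the log2 fold change was -0.050 (SE 0.27). Cavin2 in all ECs was 259, 133 and 267 CPM against 276, 302 and 283 CPM, narrowly without overlap, with a log2 fold change of 0.36 (SE 0.25). Without eNOS+/+ 2, the replicate at 133 CPM, it was 0.11. Cavin1 and Cav2 differed by 0.10 (SE 0.21) and 0.0076 (SE 0.21) in all ECs, with intervals of -0.34 to 0.54 and -0.43 to 0.45. Cavin1 is also a Mural gene in these data, and its highest Structural EC value, 519 CPM, belonged to eNOS-/- 3, whose Structural ECs carried the mural genes. Their part in this value was not tested.

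Counted over the list, 1 of 10 genes in Tip ECs lay lower in every eNOS-/- replicate than in every eNOS+/+ replicate (Plvap) and 2 lay higher (Abcb1a and Tfrc), while over all genes tested 5.41% lay lower and 4.94% higher in this way. In Structural ECs 1 of 10 lay lower (Plvap) and 0 higher, against 4.79% and 5.74% of all genes. In Proliferative ECs 1 of 9 lay lower (Mfsd2a) and 4 higher (Cav1, Cavin1, Slco1a4 and Tfrc), against 5.43% and 5.36%. In all ECs 2 of 10 lay lower (Plvap and Mfsd2a) and 1 higher (Cavin2), against 5.00% and 5.39%. The median log2 fold change of the list was 0.36, 0.10, 0.32 and 0.21 in these sets, beside 0.0046, 0.010, 0.015 and 0.0078 for all genes tested. The sets of ECs share replicates and, with all ECs, cells, so they are not independent of each other.

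**Figure D4:**
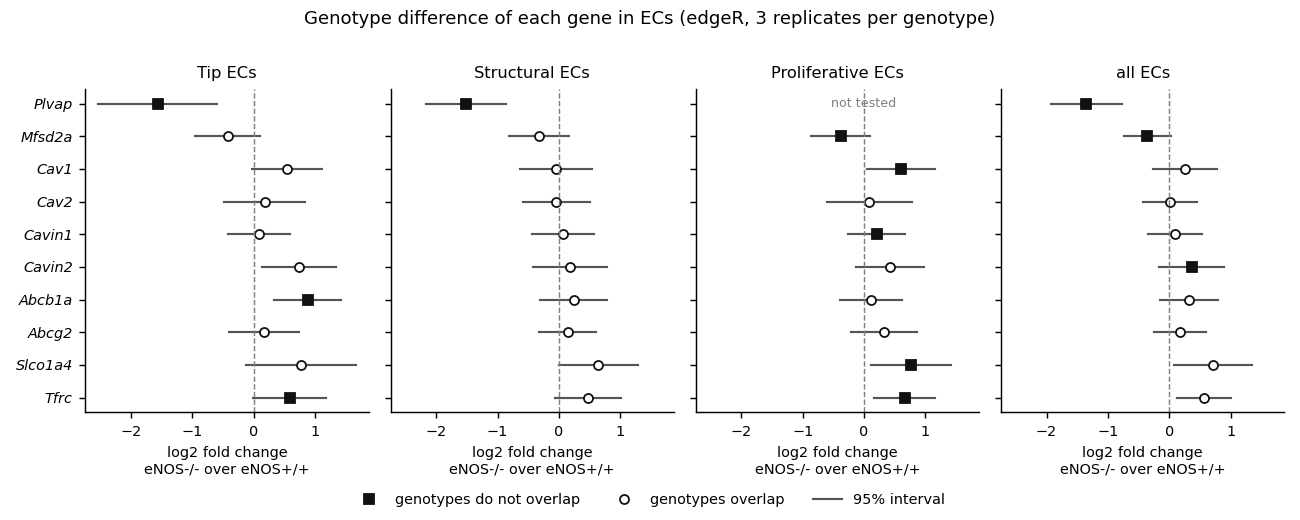
Log2 fold change of eNOS-/- over eNOS+/+ (x axis) of each gene in Tip, Structural, Proliferative and all ECs, with 95% intervals from edgeR (n = 3 per genotype); filled squares mark genes whose genotypes did not overlap and open circles the others. Plvap lies lowest, at -1.57, -1.51 and -1.35 where it was tested, and Mfsd2a is the only gene below 0 in all 4 sets.

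Whether the genotype difference itself depended on the EC label was tested with an interaction term over the 18 sums of 3 labels and 6 replicates. By edgeR, 0 of 7019 genes passed an adjusted p of 0.05 and 241 had an unadjusted p under 0.05. Among the list, Abcb1a had the smallest unadjusted p (0.00784 by edgeR, adjusted p 1.00), with a log2 fold change 0.59 higher in Tip than in Structural ECs and 0.17 lower in Proliferative than in Structural ECs. Cav1 followed (0.0283 by edgeR, adjusted p 1.00), with differences of 0.60 and 0.58. For Plvap the unadjusted p was 0.298 by edgeR, and the difference between Tip and Structural ECs was 0.034. The interaction fit had terms for the replicate and for the label, and beyond these it treated the 3 sums of a replicate as separate samples.

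Other genes of the same routes also gave 0 calls in each of the 4 sets. Among 11 further genes of caveolae and vesicle budding, 7 were tested in all ECs and 0 had an unadjusted p under 0.05. The smallest p in all ECs belonged to Cavin3, a further caveolar coat gene, at 290.4 ± 27.5 CPM in eNOS+/+ and 186 ± 149 CPM in eNOS-/-, which overlapped (log2 fold change -0.71, SE 0.39, adjusted p 0.885 by edgeR), followed by Dnm2, the dynamin that cuts vesicles off (0.34, SE 0.23), and Ehd4 (-0.36, SE 0.27). Cavin3 did reach an unadjusted p under 0.05 in Structural ECs (-0.94, SE 0.37) and in Proliferative ECs (-1.07, SE 0.40), the 1 gene of these lists to do so in each, with adjusted p of 0.864 and 0.627 by edgeR. Cav3 was not in the table. Of 19 further carriers and efflux pumps, 17 were tested in all ECs and 0 reached that p there, while Slco1c1, a carrier of thyroid hormone, reached it in Tip ECs (0.70, SE 0.31, adjusted p 0.904 by edgeR). The first 3 in all ECs were Slc6a6, the taurine carrier (-0.36, SE 0.21), Slco1c1 (0.33, SE 0.20), and Slc22a8, an organic anion carrier (0.40, SE 0.28). Slc2a1, the glucose carrier of the barrier, was 1008 ± 53.6 CPM in eNOS+/+ and differed by -0.029 (SE 0.20).

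Of 13 further genes of receptor-mediated uptake and iron handling, 11 were tested in all ECs and 0 reached that p in any of the 4 sets. The first 3 were Trf, the gene of transferrin, the ligand of the Tfrc product (0.33, SE 0.20), Steap3, an iron reductase (0.40, SE 0.25), and Scarb1, a lipoprotein receptor (0.24, SE 0.21). The medians of the 3 lists were -0.012, -0.056 and 0.13 in all ECs. Reads of near-identical copies, such as Abcb1a and Abcb1b or the members of the Slco1a family, may be split or lost in counting. Abcb1b was nearly absent, at 1.16 ± 1.03 CPM in eNOS+/+ ECs.

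Plvap and Mfsd2a were next compared within single cells. ECs were drawn down to 500 UMIs each, which kept 3545 ECs, and for each replicate the log2 odds ratio of finding both genes in the same cell was computed, with 0.5 added to each count of cells. Mfsd2a was seen in 5 of 83 ECs with a Plvap UMI and in 487 of 3462 without, or 6.02% and 14.1%. The log2 odds ratios were -2.43, 0.0028 and -0.90 in eNOS+/+ 1 to 3 and -2.56, -0.075 and 0.66 in eNOS-/- 1 to 3, with a mean of -0.88 ± 1.34. Both genes were found in 0 to 3 cells of each replicate. The value of eNOS-/- 3 came from 2 cells with Plvap, 0 of them with Mfsd2a, with the 0.5 added. An exact two-sided sign-flip permutation test over the 6 replicates gave p = 0.188 (adjusted p = 0.450 over 17 pairs). With ECs drawn down to 1000 UMIs the mean was -0.66 ± 0.48, below 0 in 5 of 6 replicates (exact permutation p = 0.0625, adjusted p = 0.354).

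Of the 17 pairs that joined Plvap or Mfsd2a with another gene of the list, 0 passed the correction. With 6 replicates it could hardly be passed, since at least 11 of the 17 pairs would have had to reach the smallest p possible. Over all ECs at 500 UMIs each, Mfsd2a with Tfrc was the only pair whose log2 odds ratio lay on the same side of 0 in 6 of 6 replicates. Its mean log2 odds ratio was 0.86 ± 0.40, from 0.32 to 1.38, with an exact permutation p of 0.0313, the smallest that 6 replicates allow, and an adjusted p of 0.354. Plvap with Cav2 and Plvap with Cav1 were above 0 in 5 of 6 replicates, at 0.98 ± 0.77 and 0.81 ± 0.83, from 4 and 9 ECs with both genes. Over the replicates together the shares were close. Cav2 was seen in 4.82% of ECs with a Plvap UMI and 4.53% of those without, and Cav1 in 10.8% and 9.68%. The highest value of each pair, 2.04 and 1.72, was that of eNOS-/- 3, where 0 of 2 Plvap cells had the partner. In Structural ECs only, Plvap with Cav1 (1.12), Cav2 (1.63), Cavin1 (0.61) and Cavin2 (0.77) lay above 0 in 6 of 6 replicates. Each had an adjusted p of 0.106 by the same permutation test. They rest on 52 cells with a Plvap UMI, and with few cells the 0.5 added can raise the value. At 1000 UMIs Plvap with Cav2 lay above 0 in 6 of 6 replicates (0.98 ± 0.88). In Drop-seq, 1 bead can give several barcodes. The 5925 ECs fell into 4426 families of barcodes sharing their first 11 bases, and with each family counted as 1 cell Mfsd2a with Tfrc was above 0 in 5 of 6 replicates (mean 0.59 ± 0.51).

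**Figure D5:**
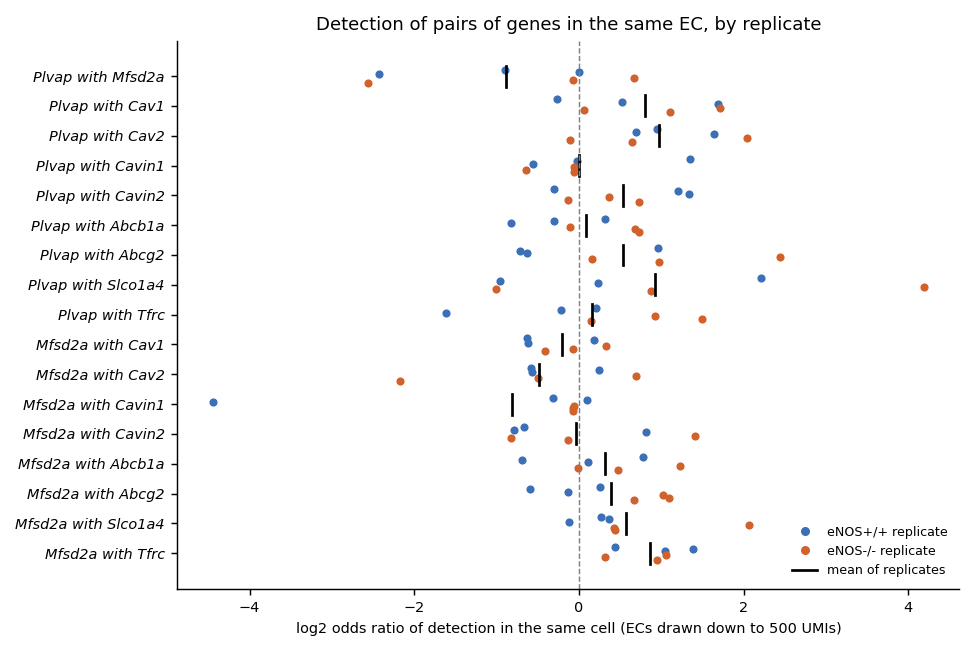
Log2 odds ratio (x axis) of finding a pair of genes in the same EC after drawing ECs down to 500 UMIs, for the 17 pairs with Plvap or Mfsd2a; points are the 6 replicates coloured by genotype and bars their mean. Mfsd2a with Tfrc is the pair with all 6 points above 0, and the points of Plvap with Mfsd2a range from -2.56 to 0.66.

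Over the 18 EC sums, likeness was measured by Pearson's r of log2(CPM + 10) against 3864 genes with a mean of at least 50 CPM. These sums come from 6 replicates and share cells of the same libraries, so r is a description. The genes most like Plvap were Pdcd4 (r = 0.83), Klhl32 (0.79), Hspa13 (0.75), Lmo2 (0.73) and Lipe (0.73). The genes most like Mfsd2a were Smarca4 (0.76), Gps2 (0.75), Id1 (0.72), Fam133b (0.72) and Pabpc1 (0.71). Plvap and Mfsd2a themselves had r = 0.44. Within the list, Plvap was least like Cavin2 (-0.53) and Mfsd2a least like Cavin1 (-0.63).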

How the data were processed

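Drop-seq libraries of 6 replicates (3 per genotype) were analysed. The authors used kb-python against GRCm38 to count UMIs. They dropped cells that had few genes, a high mitochondrial share, or the profile of red blood cells or pigment epithelium, and labelled clusters found with Seurat (version 3 in the submitters' processing notes). The deposited table holds raw UMI counts per gene and cell, and a second deposited table gives each cell's replicate and label. The series description counts 2044 and 3334 ECs, whereas 2121 and 3804 cells carry an EC label here (3031 and 5913 cells in all, as described). Doublets were not called.

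UMIs were summed per label and replicate. Genotypes were compared with edgeR 4.0.16 (filterByExpr, TMM, quasi-likelihood test, Benjamini-Hochberg over all genes tested), on R 4.3.3. On simulated counts the test recovered 178, 165, 175 and 187 of 200 changed genes in Tip, Structural, Proliferative and all ECs. It made 10, 15, 3 and 12 false calls in these sets. Recovery at the log2 fold changes seen for the 10 genes was not tested. DESeq2 1.42.0, RLE scaling, no filter, cells with at least 500 UMIs, removal of mitochondrial genes, a replicate block and leaving out each replicate were alternatives. Cells were thinned to 500 UMIs without replacement, and intervals are exact (Clopper-Pearson) and cover counting error only. Same-numbered replicates did not deviate together in all pairs (correlations of 0.30, -0.10 and 0.26 in all ECs), so no pairing was assumed. No pair of replicates of the same genotype agreed within sampling noise.

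The members and gene lists were chosen with earlier results of these data known. Named genes beyond the members were the 3 smallest unadjusted p of each list in all ECs, the genes of these lists with an unadjusted p under 0.05 in an EC label, the 5 genes most like Plvap and Mfsd2a, and Slc2a1 and Abcb1b. The second and the last of these were chosen after their values were seen. So were the genes named for the ECs with 3 or more Plvap UMIs.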

Additional observations from a re-analysis of the deposited data

Results flagged for a closer look

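Of 30 levels examined over the 6 replicates (10 genes in 3 EC labels), 1 replicate stood apart from the others by more than Dixon's 95% criterion, which chance alone flags in about 1 in 20 groups. Cavin2 in Structural ECs was 121 CPM in eNOS+/+ 2 and 244 to 304 CPM in the other 5 replicates. The same replicate also had the lowest Cavin2 in Tip and Proliferative ECs, at 118 and 157 CPM. Its ECs had the highest sum of erythroid genes, 8529 CPM, and the part of this in the Cavin2 value was not tested.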

How the results depend on the processing

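Counts of members called stayed at 0 except that Plvap was called (1 member) in Structural ECs without a filter on low counts (adjusted p = 0.00139) and with a replicate block (0.0324), and in all ECs without a filter (0.00049) and without eNOS-/- replicate 3 (range 0 to 1 member over the replicates left out). Without a filter edgeR called 8, 74, 10 and 84 genes in Tip, Structural, Proliferative and all ECs (median log2 fold change of all genes 0.12 to 0.18), and without eNOS-/- replicate 3 it called 25, 28, 73 and 78, against 1, 2, 1 and 2. The replicate block gave 1, 11, 3 and 2, and not every replicate deviated most like its own number (eNOS+/+ 2 with eNOS-/- 2, r = -0.10, with eNOS-/- 3, 0.19). DESeq2 gave 2, 3, 1 and 3. Log2 fold changes near 0 changed sign. Cav1 in Structural ECs was 0.035 in cells with at least 500 UMIs. Leaving out replicates gave -0.36 to 0.16 (Cav1), -0.11 to 0.030 (Cav2), -0.15 to 0.24 (Cavin1) and -0.11 to 0.36 (Cavin2) in Structural ECs, -0.066 to 0.48 (Cav2), -0.047 to 0.33 (Cavin1) and -0.074 to 0.34 (Abcg2) in Tip ECs, -0.072 to 0.37 (Cav2) and -0.023 to 0.25 (Abcb1a) in Proliferative ECs, and -0.069 to 0.11 (Cav2) and -0.013 to 0.26 (Cavin1) in all ECs. The mean log2 odds ratio of Plvap with Mfsd2a was 1.01 in Tip ECs only and 1.21 in Proliferative ECs only, both alternatives chosen after seeing the data, and the cause was not tested. These values rest on 19 Tip and 12 Proliferative ECs with a Plvap UMI over all replicates. With so few cells, the 0.5 added to each count can alone give a value above 0. The ratios between EC labels moved by less than 1 SD in each alternative. The sign turned for Cavin2 in Tip over Structural ECs as a mean over cells (0.053 against -0.22), and for the ratios near 0 of Mfsd2a, Cav1, Cav2 and Cavin1 in Proliferative over Structural ECs (Mfsd2a -0.031 against 0.014 in cells with at least 500 UMIs, the others when 1 replicate was left out). Plvap counts of 21 to 99 UMIs per replicate limit what its differences can show.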

Other observations

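Plvap was seen at 3 or more UMIs in 24 ECs, chosen after the values were seen and described without a test. They numbered 7, 4 and 7 of 499, 530 and 1092 ECs in eNOS+/+ 1 to 3 and 3, 0 and 3 of 1250, 2266 and 288 ECs in eNOS-/- 1 to 3. Their median depth was 3155 UMIs, and 19 carried the Structural label, where the other 3316 cells had a median of 486 UMIs. Esm1, known from endothelial sprouts and named here after its value was seen, was at 1161 CPM in these 19 cells (80 UMIs in 7 of the 19 cells) against 49.7 CPM in the other Structural ECs. Of the 24 cells, those with an Esm1 UMI numbered 5, 0 and 3 in eNOS+/+ 1 to 3 and 1, 0 and 0 in eNOS-/- 1 to 3. Angpt2, a ligand made by sprouting ECs, was at 392 CPM in the 19 Structural cells against 49.9 CPM, from 27 UMIs in 5 cells. Ednrb, Car2 and Hey1 were also higher in the 19 cells, at 334, 450 and 290 CPM against 37.7, 74.3 and 41.2 CPM, in 5, 7 and 7 cells. Across all ECs Esm1 was 207, 119 and 74.9 CPM in eNOS+/+ 1 to 3 and 112, 155 and 26.6 CPM in eNOS-/- 1 to 3, and these ranges overlapped.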
